A study of Rattus norvegicus with 17 samples.

Results

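The comparison described here is chemotherapy against none in tumor-bearing rats, measured as RNA in the gastrocnemius, the large calf muscle of the hindlimb. The 2 groups were chosen by their sample titles, which mark a tumor, chemotherapy or its absence, and a control diet. They hold 11 of the 16 samples of the series, 5 with a tumor and no chemotherapy and 6 with a tumor and chemotherapy. The 5 remaining samples come from healthy rats on the same diet. The libraries were made from total RNA with a stranded kit that removes ribosomal RNA, and the RNA integrity number was above 9.0 per the labels. The labels name neither the tumor, the agent, its dose and schedule, nor the strain, sex and age of the rats. They also do not say how long after the last dose, at what hour of the day, or in what feeding state the muscle was taken. In the text below, "tumor" stands for tumor without chemotherapy and "chemotherapy" for tumor with chemotherapy, and samples carry the library number from their titles.

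As background, skeletal muscle is made of multinucleate fibers, each wrapped in a basement membrane and held to tendon by a dense collagen matrix. Between the fibers lie capillaries with their pericytes, small arteries with smooth muscle, fibroblast-like cells, macrophages and satellite cells, the stem cells of muscle. Cancer cachexia is the loss of muscle mass that accompanies many tumors, and several cytotoxic drugs are known to cause muscle loss of their own. Known routes of muscle loss run through the ubiquitin ligases Fbxo32 (atrogin-1) and Trim63 (MuRF1), myostatin signaling, FoxO transcription factors and glucocorticoids. Cytotoxic drugs act on many cells through p53, whose targets include the cell cycle inhibitor Cdkn1a and the p53 ligase Mdm2. In bulk muscle, fewer cells of a type and less RNA per cell cannot be told apart.

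The deposited counts summed to between 3023899 and 10887041 reads in the 12 libraries of these groups. For chemotherapy libraries 11 and 12 the chi-square of their counts over its degrees of freedom was 2.03, against 5.16 for the next closest pair of libraries within a group. They were summed and counted as 1 sample, called chemotherapy sample 11. This made it the deepest sample, with 19965891 counts in named genes. The other chemotherapy samples held 3020821 to 9419826 and the tumor samples 5422118 to 10857477. The share of counts in the 20 most abundant genes was 36.3% ± 2.46 in tumor (SD, n = 5) and 36.1% ± 1.34 in chemotherapy samples (SD, n = 6; two-sided exact permutation p = 0.842). The fiber markers, including the fast myosin gene Myh4, summed to 171930 to 232304 CPM (counts scaled to library size) in tumor and 173707 to 212394 in chemotherapy samples, which matches the labelled tissue.

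Some samples stood apart. The first principal component of the 11 samples held 36.6% of the variance of the 1000 most variable genes and set tumor samples 8 and 10 (at 31.3 and 24.1) and chemotherapy sample 11 (at 16.2) apart from the 8 others (-23.7 to 4.96). The second held 12.9% and set chemotherapy sample 17 (at -29.8) apart from the others (0.68 to 10.1). In tumor sample 8 the epidermal keratin markers summed to 206 CPM, against at most 1.91 in the other tumor and 2.44 in the chemotherapy samples. The tendon markers summed to 558 CPM in tumor sample 8, 526 in the next tumor sample and 467 in chemotherapy sample 11, against at most 200 in the 5 other chemotherapy samples. Lymphocyte markers summed to 69.8 CPM in chemotherapy sample 17, against at most 28.1 in the 10 other samples. Chemotherapy sample 11 is also the only sample of these 2 groups whose alignment name ends in MB; the others end in VM, and the labels do not explain these letters.

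Among the 11856 genes tested with edgeR's quasi-likelihood test, 0 had an adjusted p below 0.05, so the background of calls was 0% in each direction. The smallest adjusted p was 0.172, for Fras1. At an unadjusted p below 0.05 stood 685 genes, 233 with a higher level in chemotherapy (1.97% of all genes tested) and 452 with a lower level (3.81%). The median log2 fold change over all genes was 0.00, and 50.6% of genes had a higher level. DESeq2 called 9 genes in the same counts and limma-voom none. The 9 were Fras1, Nr1d1, Flnc, Myh11, Ccnd1, Frem2 and the unnamed locus AABR07015055.1, all lower, and Gadd45g and Mnda, both higher. A p that misses the threshold does not show that the levels were alike.

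A count that needs no model gave a similar picture. In 57 genes every chemotherapy sample lay on the same side of every tumor sample, 22 with higher levels (0.186% of all genes tested) and 35 with lower levels (0.295%). Of the 462 splits of 6 against 5 samples, a fraction of 0.00216 separates the groups fully in a given direction. Both shares of genes lie near this fraction. A lack of overlap below therefore describes the levels of a gene and is not by itself evidence of a difference. Against the healthy group in the same model, the tumor samples had 0 calls in either direction, and the chemotherapy samples had 865 genes called higher (7.3%) and 760 lower (6.41%). Of the 5 healthy libraries 4 carry the MB ending, while all 5 tumor samples and 5 of the 6 chemotherapy samples carry the VM ending. Ending and group can thus hardly be told apart in either comparison with the healthy group. The part of the ending in these calls was not tested. These comparisons share samples with the main one, so their fold changes are given below only side by side.

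**Figure D1:**
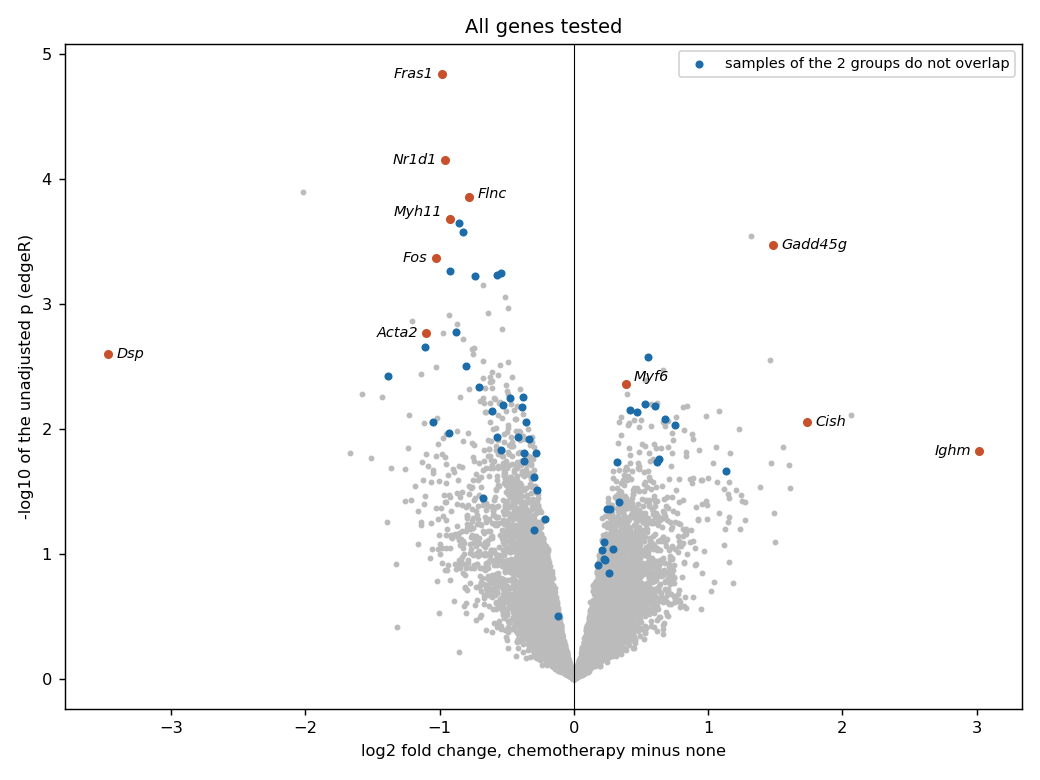
Each point is 1 of the 11856 genes tested, with the log2 fold change of chemotherapy minus none on the x axis and minus log10 of the unadjusted edgeR p on the y axis. Blue points are genes whose 5 tumor and 6 chemotherapy samples do not overlap, and orange points are genes named on the plot, of which Fras1, Flnc, Myh11 and Myf6 also do not overlap. Fras1 and Nr1d1 stand highest, both on the side of lower levels.

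Many of the gene lists described below fall into 3 sets. Lists of matrix, tendon, vessel wall, slow fiber, sarcomere, immediate early and clock genes and of small noncoding RNAs had medians from -0.81 to -0.18. Lists of ribosomal proteins and macrophage markers had medians from 0.17 to 0.38. Lists of atrophy ligases, autophagy, p53 targets and DNA repair had medians between -0.03 and 0.08, near the 0.00 of all genes. No member of any list had an edgeR adjusted p below 0.05. The counts below are at an unadjusted p below 0.05, which 1.97% of all genes met on the higher side and 3.81% on the lower. Counts near these shares, such as 3 of 51 small noncoding RNAs and 1 of 20 atrophy ligases lower, do not set a list apart. Larger counts are not a test of a list either, because the lists were chosen with earlier results of these data known. Members of a list can also vary together over the same samples.

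**Figure D2:**
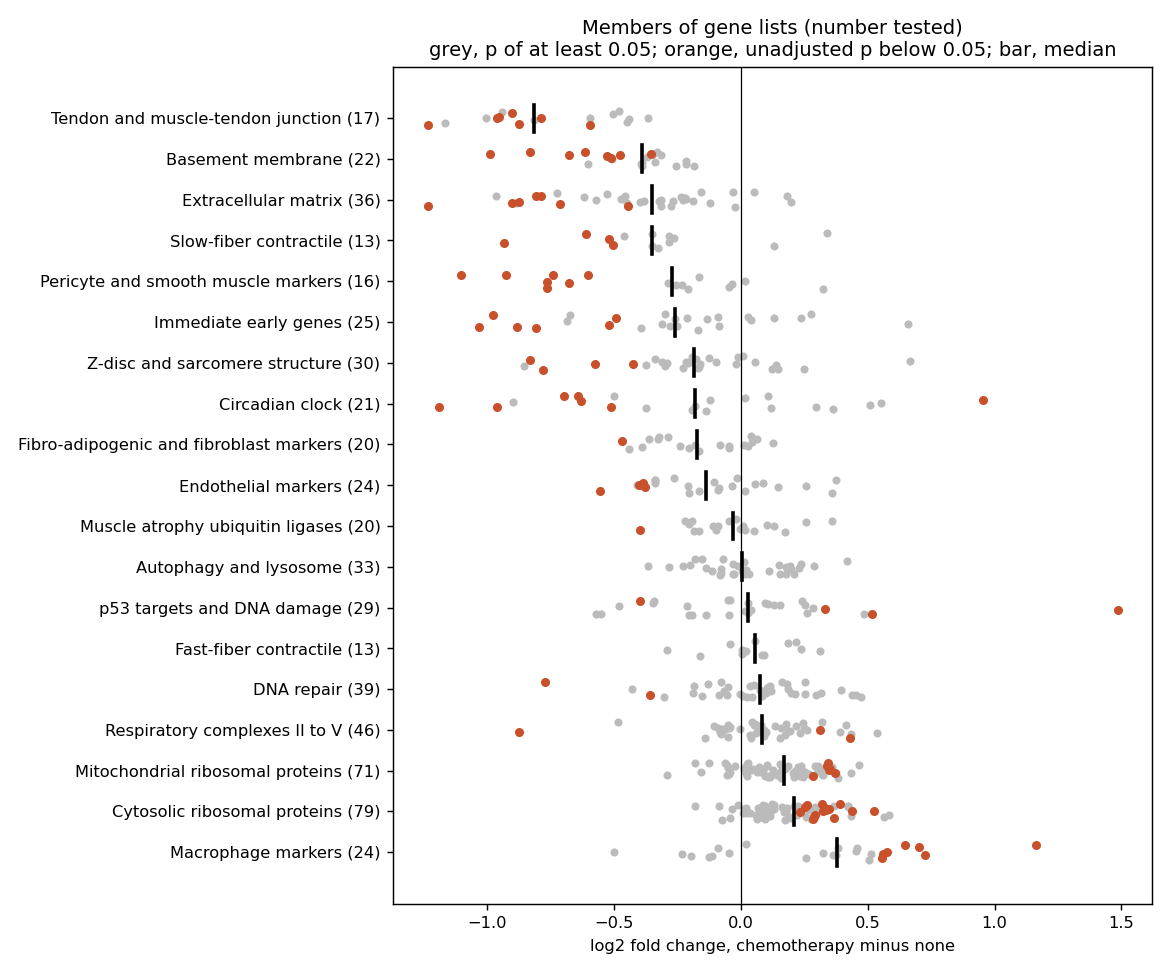
Each point is a member of a gene list, placed by its log2 fold change of chemotherapy minus none on the x axis, with the list and its number of tested members on the y axis. Orange points have an unadjusted p below 0.05, grey points do not, and black bars are medians. All 22 basement membrane and all 17 tendon members lie left of 0, and 73 of 79 cytosolic ribosomal protein genes lie right of it.

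Basement membrane genes had lower levels with chemotherapy throughout the list. The basement membrane is the sheet of laminin, type IV collagen, nidogen and perlecan around each fiber and capillary. All 22 tested genes of the list had a lower level, 8 of them at an unadjusted p below 0.05, with a median log2 fold change of -0.39. Fras1 encodes a protein that forms a complex with Frem1 and Frem2 at the basement membrane of epithelia. Its level was 55.8, 75.2, 63.8, 37.2 and 54.1 CPM in tumor samples 6 to 10, and ran from 23.8 through a median of 30.1 to 30.6 CPM in the chemotherapy samples. No chemotherapy sample reached the lowest tumor sample, and 5 of the 6 lay within 28.6 to 30.6 CPM. This came to a log2 fold change of -0.99 ± 0.17 (SE; edgeR unadjusted p = 1.45e-05, adjusted p = 0.172).

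Frem2 also did not overlap between the groups. Its level was 67.7, 93.9, 122, 71.0 and 81.3 CPM in the tumor samples and 39.0 to 61.7 with a median of 48.9 CPM with chemotherapy, a log2 fold change of -0.83 ± 0.19 (edgeR adjusted p = 0.426). Frem1, named after its values were seen, overlapped in 1 of 6 chemotherapy samples, with a log2 fold change of -0.67 ± 0.22 (edgeR adjusted p = 0.778). Among structural members, the laminin chain gene Lama5 had a log2 fold change of -0.61 ± 0.19. The type IV collagen chain gene Col4a2 had a log2 fold change of -0.53 ± 0.21, and its partner Col4a1 of -0.34 ± 0.21. Without tumor sample 8 these were -0.30 and -0.12. Fras1 averaged 29.0 CPM with chemotherapy, 57.2 in tumor and 53.1 in healthy samples, so that the level in tumor lay near that in healthy rats. Col4a1 differed in this, with means of 205, 260 and 483 CPM in the same order.

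Leaving out samples moved the count of the list but not its direction. Between 4 and 12 members had a lower level at an unadjusted p below 0.05 when 1 sample was left out. There were 4 without tumor sample 8, 5 without chemotherapy sample 14, 15 or 16, and 10 without chemotherapy sample 11. Without tumor sample 8, the sample with epidermal keratins, the log2 fold change of Fras1 was -0.95 (adjusted p = 0.656).

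The wider matrix list behaved less evenly. Of 36 tested genes of the extracellular matrix, 33 had a lower level, 7 of them at an unadjusted p below 0.05, and the median log2 fold change was -0.35. The fibrillar collagen genes showed how far samples of a group can differ. Col1a1, the main chain of type I collagen, stood at 1378, 3487, 9257, 2950 and 10140 CPM in tumor samples 6 to 10. With chemotherapy it ran from 865 through a median of 1765 to 8156 CPM, the last in sample 11. The groups overlapped widely, and the log2 fold change was -0.96 ± 0.61 (edgeR adjusted p = 0.779). Col3a1, the chain of type III collagen, had a log2 fold change of -0.22 ± 0.30 (adjusted p = 0.863), with means of 1084 CPM with chemotherapy, 1266 in tumor and 2695 in healthy samples.

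The matricellular gene Ccn1 (Cyr61), also a target of mechanical signaling, was the member whose groups did not overlap. It stood at 38.7, 34.4, 32.6, 31.4 and 37.2 CPM in the tumor samples and at 10.6 to 30.5 with a median of 20.6 CPM with chemotherapy. In edgeR the log2 fold change was -0.81 ± 0.24 (edgeR adjusted p = 0.778). The count of matrix genes at an unadjusted p below 0.05 went from 7 to 1 without tumor sample 8 or 10, to 3 and 4 without chemotherapy samples 16 and 15, to 12 and 13 without tumor samples 6 and 7, and to 20 without chemotherapy sample 11.

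Tendon genes had the lowest median of the lists with more than 5 tested members. All 17 tested genes of the list of tendon and the muscle-tendon junction had a lower level, 7 at an unadjusted p below 0.05, with a median log2 fold change of -0.81. Col12a1, a collagen on the surface of tendon fibrils, stood at 131, 125, 304, 122 and 329 CPM in tumor samples 6 to 10. With chemotherapy it ran from 63.6 through a median of 90.2 to 220 CPM, the last in sample 11. Tumor samples 8 and 10 were high, and 5 of 6 chemotherapy samples lay below the lowest tumor sample. The log2 fold change was -0.90 ± 0.36 (edgeR adjusted p = 0.778).

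Tenascin C (Tnc), a matrix glycoprotein of the muscle-tendon junction, stood at 38.9, 35.3, 133, 41.3 and 142 CPM in the tumor samples. Its range with chemotherapy was 19.9 to 75.3 with a median of 25.3 CPM, and its log2 fold change was -1.23 ± 0.45 (edgeR adjusted p = 0.778). Thrombospondin 4 (Thbs4) and the small proteoglycans fibromodulin (Fmod) and keratocan (Kera) had the same high samples, with log2 fold changes of -0.78 ± 0.33, -0.87 ± 0.38 and -0.96 ± 0.43. Col22a1, a collagen of the junction itself, had a narrower spread. It stood at 41.9, 59.8, 46.0, 29.4 and 23.5 CPM in the tumor samples and 22.7 to 30.2 CPM with chemotherapy (log2 fold change -0.59 ± 0.19).

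Small noncoding RNAs had the same 3 samples highest. Of 51 tested 43 had a lower level, 3 at an unadjusted p below 0.05, with a median log2 fold change of -0.40. The list's mean log2 level, relative to each gene's mean, was 0.66 in tumor sample 8, 0.20 in tumor sample 10 and 0.11 in chemotherapy sample 11, and below 0 in the 8 others. The count of 3 went to 0 without tumor sample 8 and to 13 without chemotherapy sample 11. The part of this difference between libraries in the matrix and tendon results was not tested.

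The tendon markers, which include Fmod from the genes described above, were high in the same 3 samples. How much tendon each piece of muscle held was not measured, and its part in the result was not tested. The count of 7 tendon genes went to 1 without tumor sample 8 or 10, to 3 without chemotherapy sample 15 or 16, and to 13 without chemotherapy sample 11. The median log2 fold change was -0.49 without tumor sample 8 and -1.25 without chemotherapy sample 11.

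Genes of the vessel wall leaned lower with chemotherapy. Of 16 tested genes of the pericyte and smooth muscle list, 14 had a lower level, 7 at an unadjusted p below 0.05, with a median log2 fold change of -0.27. Myh11, the smooth muscle myosin heavy chain, stood at 122, 106, 101, 71.5 and 62.8 CPM in tumor samples 6 to 10 and ran from 29.5 through a median of 52.8 to 61.6 CPM with chemotherapy. The groups did not overlap. This came to a log2 fold change of -0.92 ± 0.20 (edgeR adjusted p = 0.426).

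Transgelin (Tagln), an actin-binding protein of smooth muscle, likewise did not overlap. It stood at 64.8, 47.8, 53.8, 44.6 and 47.7 CPM in the tumor samples and at 19.5 to 38.7 with a median of 33.3 CPM with chemotherapy (log2 fold change -0.74 ± 0.18, edgeR adjusted p = 0.509). Smooth muscle actin (Acta2) had a log2 fold change of -1.10 ± 0.30, with 4 of 6 chemotherapy samples below the lowest tumor sample. Myosin light chain kinase (Mylk) and the pericyte proteoglycan Cspg4, both named after their values were seen, had log2 fold changes of -0.68 ± 0.20 and -0.76 ± 0.22. The receptor gene Notch3, which marks mural cells and also satellite cells, had a log2 fold change of -0.76 ± 0.28, but every chemotherapy sample lay within the range of the tumor samples.

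The 5 defining pericyte and smooth muscle markers summed to 241 to 371 CPM in tumor and 163 to 245 CPM in chemotherapy samples, and 5 of 6 chemotherapy samples lay below every tumor sample. With 1 sample left out, 6 to 8 members of the wider list had a lower level at an unadjusted p below 0.05. Endothelial genes had a median log2 fold change of -0.14, with 17 of 24 lower and 4 at an unadjusted p below 0.05. The defining endothelial markers summed to 133 to 166 CPM in tumor and 101 to 131 CPM in chemotherapy samples, without overlap. Among endothelial genes, VE-cadherin (Cdh5) had a log2 fold change of -0.37 ± 0.14, the receptor kinase Tie1 of -0.40 ± 0.14 and the apelin receptor Aplnr of -0.55 ± 0.16. None had an edgeR adjusted p below 0.778.

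**Figure D3:**
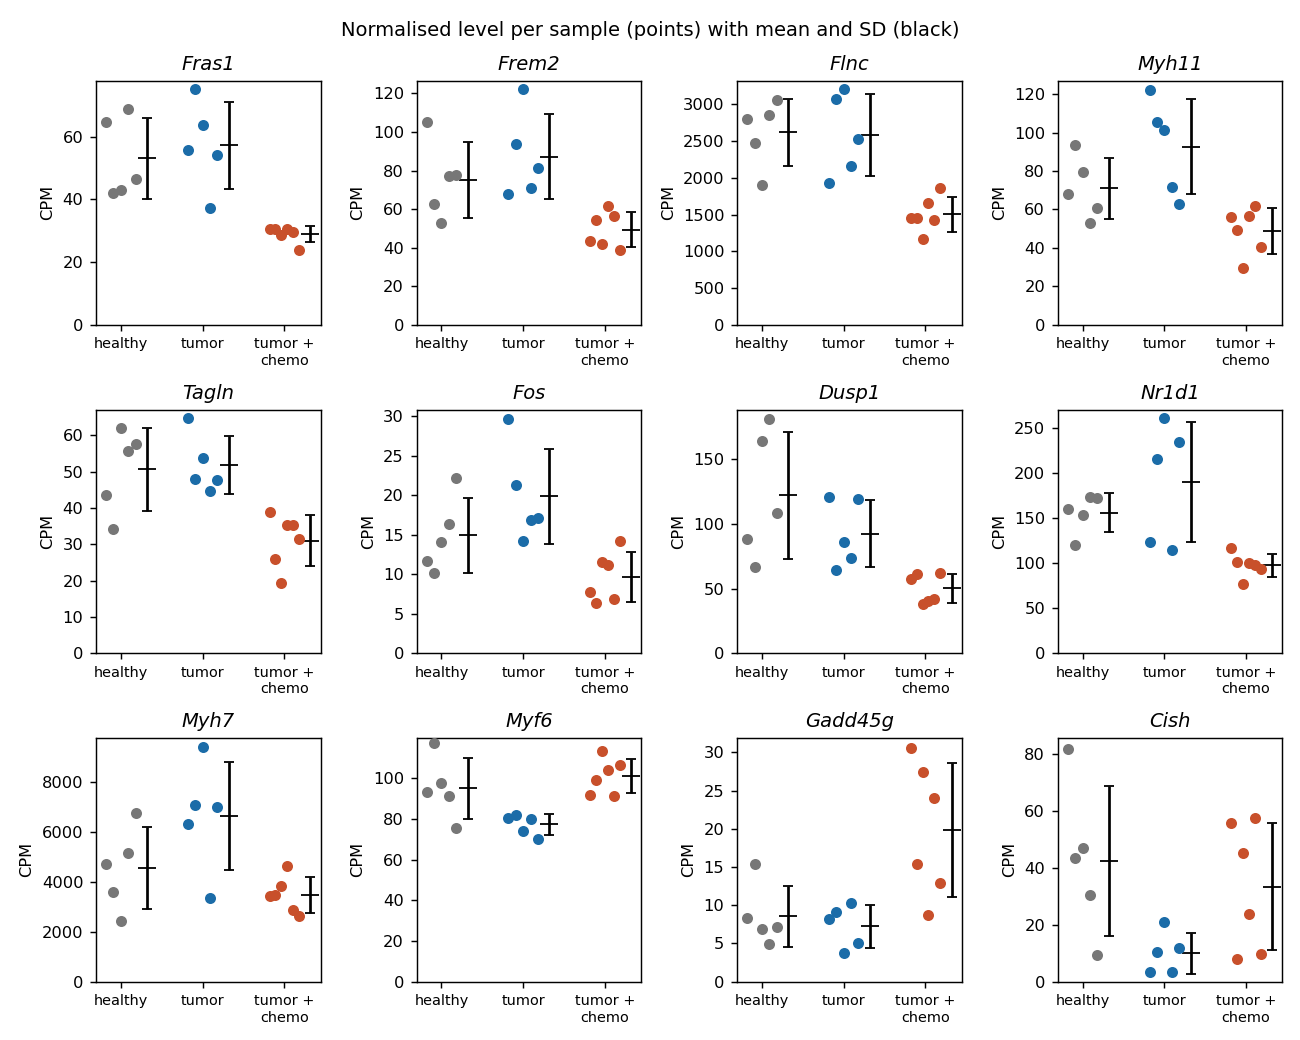
Points are the normalised level in CPM (y axis, from 0) of 12 genes in each sample of the healthy, tumor and tumor with chemotherapy groups, and black marks are the mean and SD. Chemotherapy samples of Fras1, Frem2, Flnc, Myh11, Tagln and Dusp1 all lie below the tumor samples and those of Myf6 above them, while Cish overlaps, with chemotherapy samples from 8.16 to 57.6 CPM.

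Immediate early genes, which respond within minutes to growth factors, contraction or handling, mostly had lower levels with chemotherapy. Of 25 tested genes, 19 had a lower level, 6 at an unadjusted p below 0.05, with a median log2 fold change of -0.26. Fos, a subunit of the transcription factor AP-1, stood at 29.7, 21.4, 14.2, 16.8 and 17.1 CPM in tumor samples 6 to 10 and at 6.35 to 14.3 with a median of 9.47 CPM with chemotherapy. The groups touched, as the highest chemotherapy sample (14.26) lay just above the lowest tumor sample (14.24). In edgeR the log2 fold change was -1.03 ± 0.24 (edgeR adjusted p = 0.508).

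Dusp1, a phosphatase that ends MAP kinase signaling, did not overlap between the groups. It stood at 121, 64.1, 85.7, 73.4 and 119 CPM in the tumor samples and at 38.1 to 62.4 with a median of 49.7 CPM with chemotherapy (log2 fold change -0.88 ± 0.24, edgeR adjusted p = 0.778). The transcription factor genes Egr1, Jun and Nr4a1 had log2 fold changes of -0.97 ± 0.27, -0.49 ± 0.17 and -0.52 ± 0.24, the last 2 named after their values were seen. With 1 sample left out, 5 to 8 genes of the list had a lower level at an unadjusted p below 0.05.

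Several other genes among those with the smallest unadjusted p were also lower without overlap. Ccnd1 encodes cyclin D1, which drives cells from G1 into S phase. It stood at 15.8, 17.2, 19.9, 22.6 and 25.9 CPM in the tumor samples and at 8.38 to 15.1 with a median of 10.1 CPM with chemotherapy (log2 fold change -0.86 ± 0.19, edgeR adjusted p = 0.426). It belongs to the cell cycle list, whose 22 tested members otherwise had no unadjusted p below 0.05 and a median log2 fold change of 0.05.

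Piezo2, a channel opened by mechanical force that is known from sensory neurons, had means of 15.5 CPM in tumor, 7.98 in chemotherapy and 8.57 in healthy samples. The taurine transporter gene Slc6a6 stood at 25.6 to 36.8 CPM in tumor and 18.8 to 24.2 CPM in chemotherapy samples (log2 fold change -0.57 ± 0.14). Pknox2, a homeobox gene, stood at 36.8 to 51.8 CPM in tumor and 24.0 to 32.0 CPM in chemotherapy samples (log2 fold change -0.54 ± 0.13). The edgeR adjusted p of Piezo2, Slc6a6 and Pknox2 was 0.509. Cacna1g, a T-type calcium channel gene, had a log2 fold change of -1.21 ± 0.32 at means of 11.3 CPM in tumor and 4.76 in chemotherapy samples, and overlapped because tumor sample 6 stood at 5.26 CPM.

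Clock genes were the next set. The circadian clock is a loop in which the activators Arntl (Bmal1) and Clock bind E-boxes, DNA sites that often read CACGTG, and switch on Per, Cry, Nr1d1, Dbp and Bhlhe40 and Bhlhe41. Nr1d1 (Rev-erb alpha) in turn represses Arntl, so both sides of the loop peak at different hours. To show such sites in the genes described here, the 250 bases before the start of each gene were searched on both strands for CACGTG, which is its own reverse complement. RefSeq promoters of the rat assembly GRCr8 were matched to 16 of the 21 clock genes tested, and 5 of these genes held the motif, Nr1d1, Bhlhe40, Bhlhe41, Ciart and Tef. Dbp, Per1, Per2, Per3 and Cry2 were among the matched genes without it in the bases searched. Counted by promoter, as some genes have more than 1, the motif was in 5 of the 18 promoters of the matched genes (27.8%) and in 1872 of all 33469 (5.59%). A match describes the letters and does not show a bound site. The stretches around the motif in the 4 motif-bearing genes with the lowest fold changes read as follows, each 5′ to 3′ along the gene's strand, with capitals marking CACGTG. Nr1d1 is at chr10:84229600-84229685 on the minus strand, Bhlhe40 at chr4:143174200-143174275 on the plus strand, Bhlhe41 at chr4:180569358-180569443 on the minus strand and Ciart at chr2:186112247-186112379 on the minus strand.
Nr1d1: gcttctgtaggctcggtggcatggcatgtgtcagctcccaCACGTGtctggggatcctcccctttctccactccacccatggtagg
Bhlhe40: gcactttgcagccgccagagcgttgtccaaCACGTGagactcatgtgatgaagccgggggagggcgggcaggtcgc
Bhlhe41: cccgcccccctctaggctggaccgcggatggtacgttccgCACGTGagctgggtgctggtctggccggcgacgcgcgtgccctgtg
Ciart: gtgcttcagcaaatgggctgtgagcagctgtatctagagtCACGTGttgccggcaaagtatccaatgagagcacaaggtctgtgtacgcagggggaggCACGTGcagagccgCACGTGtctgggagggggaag

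Nr1d1 was the clock gene with the smallest p. Its level was 124, 216, 262, 115 and 234 CPM in tumor samples 6 to 10 and ran from 76.6 through a median of 99.0 to 117 CPM with chemotherapy. The groups overlapped, as tumor sample 9 lay inside the chemotherapy range, with tumor sample 6 just above it and the 3 others well above. The log2 fold change was -0.96 ± 0.19 (edgeR adjusted p = 0.415). The repressor genes Bhlhe40, Bhlhe41 and Cry2 had log2 fold changes of -0.64 ± 0.17, -0.63 ± 0.24 and -0.51 ± 0.13, and in Cry2 5 of 6 chemotherapy samples lay below every tumor sample. Ciart, a low-level repressor of the clock, had a log2 fold change of -0.89 ± 0.74 (edgeR adjusted p = 0.797), and Tef, a relative of Dbp, of -0.14 ± 0.16 (adjusted p = 0.839).

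Other clock genes split the chemotherapy samples. Dbp, a transcription factor under direct clock control, stood at 86.4, 74.6, 77.4, 29.9 and 134 CPM in tumor samples 6 to 10. With chemotherapy it stood at 69.2 CPM in sample 11, 53.3 in sample 14 and 14.3 to 28.1 in the 4 others. The log2 fold change of Dbp was -1.19 ± 0.50 and that of Per3 was -0.70 ± 0.23.

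Arntl had the opposite pattern over the same samples. It stood at 11.7, 14.2, 21.0, 39.2 and 15.1 CPM in the tumor samples, at 15.5 and 16.1 CPM in chemotherapy samples 11 and 14, and at 43.2 to 63.6 CPM in chemotherapy samples 13, 15, 16 and 17. Tumor sample 9 and these 4 chemotherapy samples were thus high in Arntl and low in Dbp. The log2 fold change of Arntl was 0.95 ± 0.43. Per1 had a log2 fold change of -0.12 ± 0.50 and ranged from 5.30 to 58.5 CPM among the chemotherapy samples, highest in samples 11 and 14. Per2 stood at 26.6 and 27.3 CPM in those samples and at 4.88 to 13.9 CPM in the 4 others.

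Of 21 tested clock genes 13 had a lower level, 6 at an unadjusted p below 0.05, and 8 a higher level, 1 of them (Arntl) at that threshold. The median log2 fold change was -0.18. The labels give no hour of sampling, and the part of that hour in these levels was not tested.

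**Figure D4:**
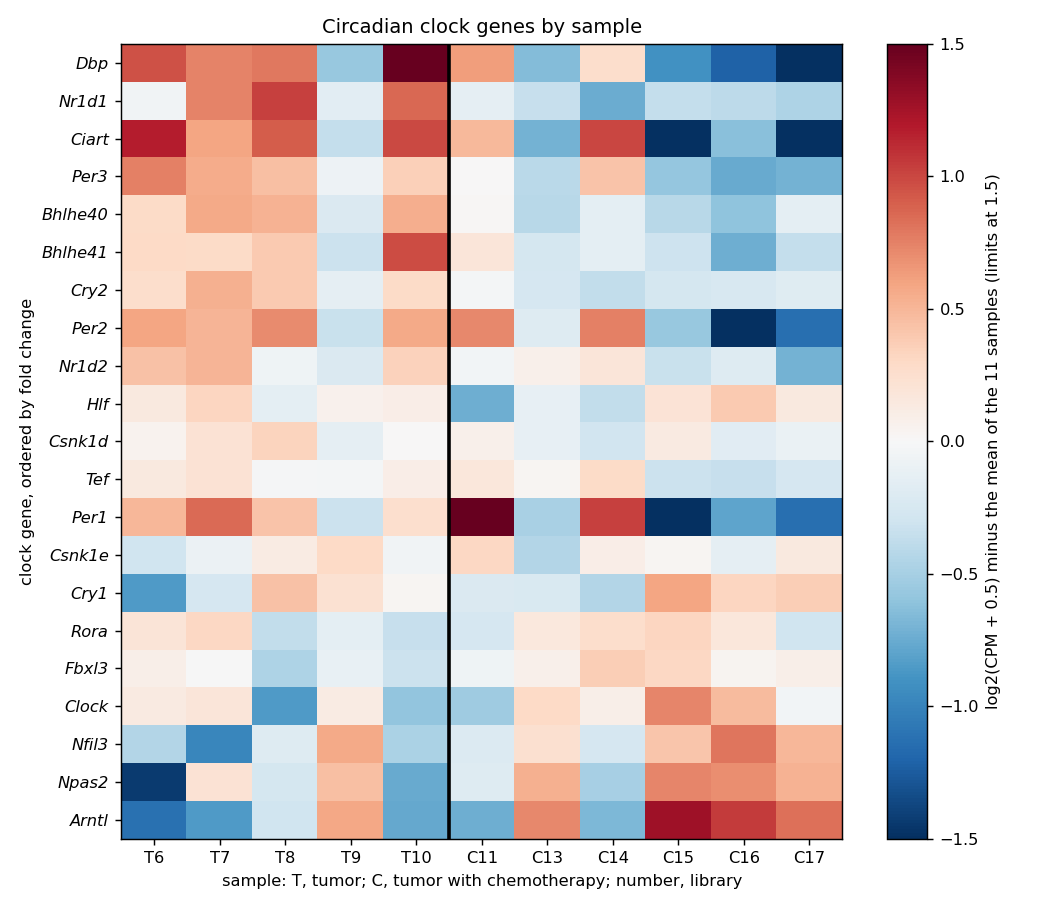
Rows are the 21 tested clock genes ordered by fold change, columns are the 5 tumor (T) and 6 chemotherapy (C) samples, and colour gives log2(CPM + 0.5) minus the mean of the 11 samples, with limits at 1.5. Nr1d1 is low in all 6 chemotherapy samples, but tumor sample 9 lies inside their range and tumor sample 6 just above it. Dbp, Ciart, Per1 and Per2 are high in chemotherapy samples 11 and 14 and low in 15, 16 and 17.

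Genes of slow fibers leaned lower with chemotherapy. Slow fibers are oxidative and fatigue resistant, and in the rat gastrocnemius they lie mainly in its deep part. Of 13 slow-fiber genes 11 had a lower level, 4 at an unadjusted p below 0.05, with a median log2 fold change of -0.35. Myh7, the slow myosin heavy chain, stood at 6312, 7076, 9392, 3352 and 6986 CPM in tumor samples 6 to 10 and at 2622 to 4640 with a median of 3444 CPM with chemotherapy. Tumor sample 9 lay inside the chemotherapy range, and the 4 other tumor samples lay above it. This came to a log2 fold change of -0.93 ± 0.25 (edgeR adjusted p = 0.771).

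The slow calcium pump Atp2a2, slow troponin I (Tnni1) and the slow light chain Myl3 had log2 fold changes of -0.61 ± 0.18, -0.50 ± 0.20 and -0.52 ± 0.21. The side by side medians of the list were 0.58 for tumor minus healthy and 0.42 for chemotherapy minus healthy. Myh7 averaged 3474 CPM with chemotherapy, 6624 in tumor and 4533 in healthy samples. Of 13 fast-fiber genes, 10 had a higher level and none an unadjusted p below 0.05, and Myh4, the myosin of the fastest fibers, had a log2 fold change of -0.16 ± 0.18 (adjusted p = 0.834). Where in the muscle each piece was cut is not in the labels, and its part in these values was not tested.

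Genes of the sarcomere and the Z-disc, where actin filaments are anchored, also leaned lower. Of 30 tested genes 23 had a lower level, 4 at an unadjusted p below 0.05, with a median log2 fold change of -0.18. Filamin C (Flnc), an actin cross-linker of the Z-disc that is recruited to damaged sarcomeres, had the smallest p of the list. It stood at 1923, 3072, 3213, 2166 and 2528 CPM in tumor samples 6 to 10 and ran from 1166 through a median of 1454 to 1861 CPM with chemotherapy. No chemotherapy sample reached the lowest tumor sample. In edgeR the log2 fold change was -0.78 ± 0.17 (edgeR adjusted p = 0.415), and the healthy mean of 2615 CPM was near the tumor mean of 2580.

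Other members with an unadjusted p below 0.05 were the M-band gene Myom3 at -0.83 ± 0.23, alpha-actinin 2 (Actn2) at -0.57 ± 0.21 and the Z-disc adapter Synpo2l at -0.42 ± 0.14, all as log2 fold changes. Dag1, the dystroglycan that ties the dystrophin complex to laminin, had a log2 fold change of -0.40 ± 0.13 in a list whose median was -0.04. Of 25 tested satellite cell and myogenesis genes, 16 had a lower level, 3 at an unadjusted p below 0.05, and 9 a higher level, 1 at that threshold. The median log2 fold change of that list was -0.08. Against this lean, its member Myf6 (Mrf4), the myogenic factor of mature fibers, was higher without overlap. It stood at 80.4, 82.1, 73.9, 80.0 and 70.4 CPM in the tumor samples and 91.6 to 113 with a median of 102 CPM with chemotherapy (log2 fold change 0.39 ± 0.12, edgeR adjusted p = 0.778).

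Ribosomal protein genes had slightly higher levels with chemotherapy. These genes encode the protein parts of the cytosolic and the mitochondrial ribosome. Of 79 cytosolic members 73 had a higher level, 15 at an unadjusted p below 0.05, with a median log2 fold change of 0.21. Rps15a did not overlap, with 147, 116, 108, 146 and 139 CPM in tumor samples 6 to 10 and 151 to 178 with a median of 163 CPM with chemotherapy (log2 fold change 0.32 ± 0.13). Rps23 and Rpl34 had log2 fold changes of 0.39 ± 0.13 and 0.33 ± 0.12, each with 5 of 6 chemotherapy samples above every tumor sample. Ribosomal protein genes have many near-identical processed pseudogenes, so the split of reads among copies is uncertain.

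Of 71 mitochondrial ribosomal protein genes 60 had a higher level, 6 at an unadjusted p below 0.05, with a median of 0.17, led by Mrpl27 at 0.35 ± 0.13. That count of 6 went to 2 without tumor sample 7, 3 without chemotherapy sample 14 and 14 without tumor sample 9. Translation factors, tested for comparison, had 32 of 64 higher and a median of 0.00. The cytosolic count of 15 went to 2 without tumor sample 8, 4 without tumor sample 7 and 5 to 8 without chemotherapy sample 13, 14, 16 or 17. Across 10820 protein-coding genes with a known span, longer genes had slightly lower fold changes. The median log2 fold change was 0.03 in the shortest of 4 equal bins of span and -0.05 in the longest (Spearman rho = -0.11 across genes, which are not independent). Ribosomal protein genes are short as a class, and the part of span in these values was not tested.

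**Figure D5:**
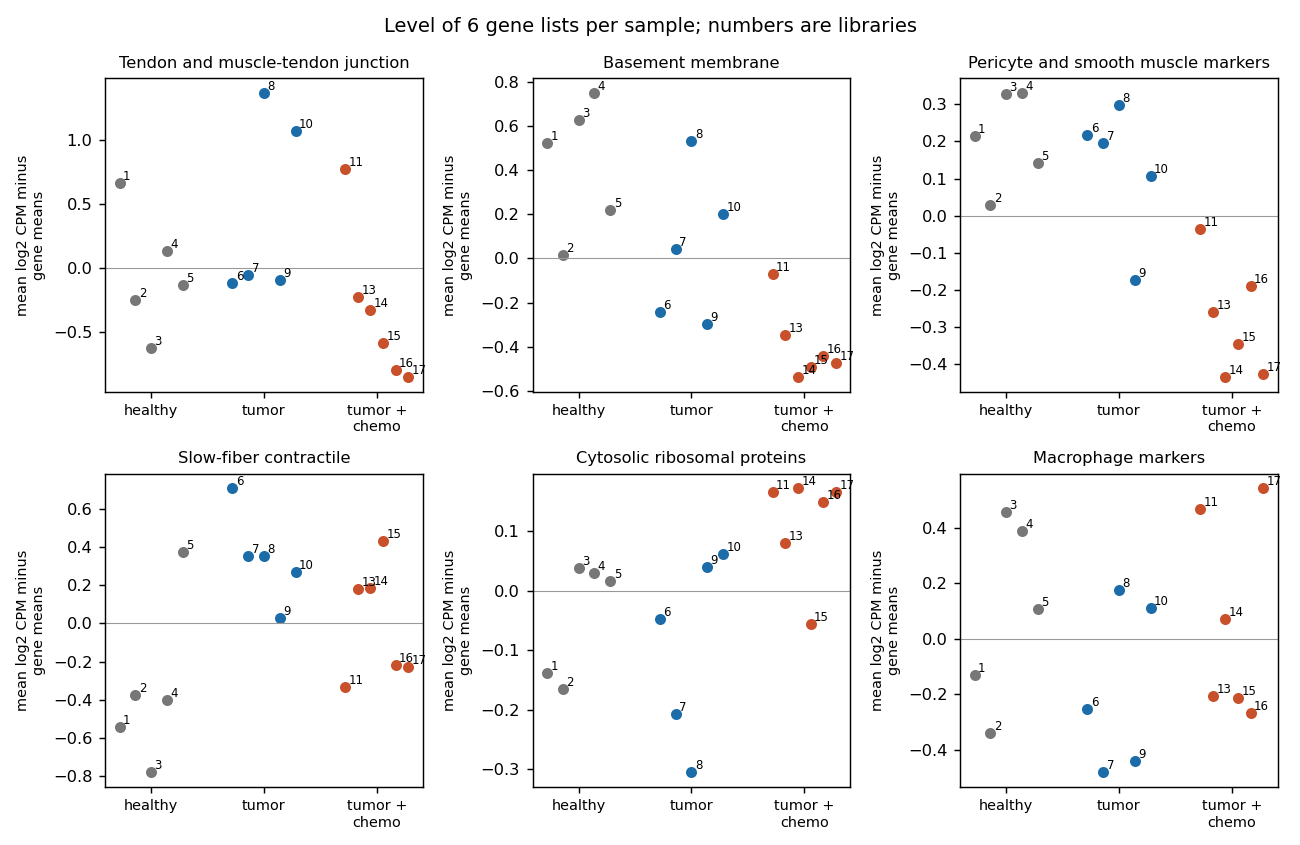
Points are samples of the healthy, tumor and tumor with chemotherapy groups, numbered by library, and the y axis is the mean over the list of log2 CPM minus each gene's mean over all samples. Tumor samples 8 and 10 and chemotherapy sample 11 are high in the tendon list, and chemotherapy samples 11 and 17 are high in the macrophage list.

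Macrophage genes leaned higher. Of 24 tested genes 17 had a higher level, 7 at an unadjusted p below 0.05, with a median log2 fold change of 0.38. The 7 others had a lower level, down to a log2 fold change of -0.50, with 0 at that threshold. The side by side medians of the list were -0.37 for tumor minus healthy and -0.05 for chemotherapy minus healthy. The genes fell into different patterns over the samples. Cd163 and Lyve1, receptors of resident macrophages (Lyve1 also of lymphatic endothelium), had log2 fold changes of 0.56 ± 0.21 and 0.65 ± 0.24, with their highest levels of 63.3 and 32.5 CPM in chemotherapy sample 11. Cathepsin S (Ctss), a lysosomal protease of antigen-presenting cells, had 5 of 6 chemotherapy samples above every tumor sample (0.58 ± 0.20).

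Lysozyme (Lyz2) and the leukocyte phosphatase Ptprc (CD45), by contrast, stood at 164 and 63.7 CPM in chemotherapy sample 17, against 45.4 to 66.4 and 9.82 to 17.1 CPM in the 5 others. With 1 surrogate variable in the model, edgeR called 7 genes, among them C1qb and C1qc, chains of complement C1q that macrophages make, with log2 fold changes of 0.80 (adjusted p = 0.0122) and 0.73 (adjusted p = 0.0191). Fcna and Smpd3 were the other genes called higher in that fit, and Fras1, Nr1d1 and Usp28 were called lower. Without the surrogate variable edgeR called none of them, and its smallest adjusted p over all genes was 0.172. F13a1, the A chain of coagulation factor XIII, had a log2 fold change of 0.56 ± 0.25. The count of 7 macrophage genes at an unadjusted p below 0.05 went to 3 without chemotherapy sample 11 and to 4 without tumor sample 9 or chemotherapy sample 17. The log2 fold change of Ptprc was 1.16 ± 0.44 with chemotherapy sample 17 and 0.39 without it, and that of Lyz2 was 0.73 ± 0.29 and 0.32. The 5 defining macrophage markers summed to 109 to 222 CPM in tumor and 126 to 234 CPM in chemotherapy samples, and overlapped in 5 of 6 chemotherapy samples. In healthy samples they summed to 132 to 289 CPM.

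Some of the largest folds rested on single samples. The immunoglobulin gene Ighm stood at 58.8 CPM in chemotherapy sample 17 and at 0 to 1.81 CPM in the 5 other chemotherapy samples, for a log2 fold change of 3.02 ± 1.12. Without sample 17 that value was -0.32. Coro1a, a leukocyte actin regulator, followed the same sample, with a log2 fold change of 1.49 with it and 0.00 without it. On the lower side, the desmosome gene Dsp, which is abundant in epidermis, stood at 172 CPM in tumor sample 8 and 2.38 to 5.09 CPM in the 4 other tumor samples. Its log2 fold change was -3.47 ± 0.98 with tumor sample 8 and -0.23 without it.

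Among genes with higher levels and a mean of at least 5 CPM, Gadd45g had the smallest p. The Gadd45 genes are induced by stress and DNA damage, and Gadd45g also by cytokines. It stood at 8.14, 9.15, 3.70, 10.3 and 5.02 CPM in tumor samples 6 to 10 and ran from 8.72 through a median of 19.7 to 30.5 CPM with chemotherapy. In 5 of 6 chemotherapy samples it exceeded every tumor sample, and sample 15 lay inside the tumor range. The log2 fold change was 1.49 ± 0.34 (edgeR adjusted p = 0.441). Its relative Gadd45a, known to rise in denervated and atrophying muscle, had a log2 fold change of 0.52 ± 0.24.

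Other higher genes varied more within the chemotherapy group. Cish, an inhibitor of cytokine signaling induced by STAT5, stood at 3.39, 10.3, 21.0, 3.49 and 11.8 CPM in the tumor samples. With chemotherapy it stood at 45.4 to 57.6 CPM in samples 11, 14 and 16, at 23.7 in sample 15 and at 8.16 and 9.89 in samples 13 and 17. This came to a log2 fold change of 1.74 ± 0.59 (edgeR adjusted p = 0.778), and the healthy mean was 42.4 CPM. Arrdc2, an arrestin-domain gene, stood at 43.4 and 52.97 CPM in chemotherapy samples 11 and 14 and at no more than 10.8 CPM in the other 9 samples (log2 fold change 1.56 ± 0.57).

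Genes with smaller differences but the smallest p on the higher side served varied functions. Haus5, a subunit of the augmin complex of the mitotic spindle, and Rras2, a small GTPase, were higher without overlap (log2 fold changes 0.55 ± 0.16 and 0.42 ± 0.14). Rpa3, the small subunit of the single-stranded DNA binding complex RPA, had a log2 fold change of 0.76 ± 0.26 at means of 4.03 and 6.87 CPM. Clcc1, a channel protein of the endoplasmic reticulum, had a log2 fold change of 0.53 ± 0.16.

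Genes induced by FoxO factors, fasting and glucocorticoids differed within the chemotherapy group. Of 27 tested genes 16 had a higher level, 4 at an unadjusted p below 0.05, and the median log2 fold change was 0.14. The count of 4 went to 1 without tumor sample 6, 8 or 10 or chemotherapy sample 11 or 14, and to 2 without tumor sample 7. The median was -0.05 without chemotherapy sample 11. Pdk4, which blocks the entry of pyruvate into the mitochondrion, stood at 123, 129, 69.0, 24.0 and 109 CPM in the tumor samples. With chemotherapy it stood at 277 and 329 CPM in samples 11 and 14 and at 58.8 to 146 CPM in the 4 others (log2 fold change 0.87 ± 0.44, edgeR adjusted p = 0.778, and 0.56 without sample 14). The glucocorticoid target Fkbp5 had a log2 fold change of 0.17 ± 0.33, with all 6 chemotherapy samples inside the tumor range. Tsc22d3 (GILZ), another such target, had 0.28 ± 0.13, and the acute phase factor gene Cebpd had 0.96 ± 0.39, highest at 41.7 CPM in chemotherapy sample 11 and 0.43 without that sample.

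The known markers of muscle atrophy showed no difference that passed the test. Fbxo32 stood at 252, 340, 170, 166 and 157 CPM in tumor samples 6 to 10 and at 209 to 454 with a median of 249 CPM with chemotherapy, a log2 fold change of 0.36 ± 0.30 (edgeR adjusted p = 0.799). Trim63 stood at 191 to 245 CPM in tumor and 199 to 251 CPM in chemotherapy samples, a log2 fold change of 0.02 ± 0.11 (adjusted p = 0.972). Of 20 atrophy ligases 8 had a higher and 12 a lower level, with 1 lower at an unadjusted p below 0.05, and the median was -0.03. Myostatin (Mstn), the growth inhibitor made by muscle, had a log2 fold change of 0.11 ± 0.23 and Foxo1 of -0.26 ± 0.20. The activin receptor gene Acvr1 had a log2 fold change of -0.46 ± 0.14 in a TGF-beta and myostatin list with a median of -0.13. None of 33 autophagy and lysosome genes had an unadjusted p below 0.05.

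Genes of the DNA damage response had a median log2 fold change of 0.03. Of 29 p53 targets and damage genes 16 had a higher level, 3 of them (Gadd45g, Gadd45a and Sesn1) at an unadjusted p below 0.05, and 13 a lower level, 1 at that threshold. The count of 3 went to 1 without tumor sample 8, tumor sample 10 or chemotherapy sample 14. The p53 target Cdkn1a stood at 9.33, 10.4, 21.5, 13.02 and 35.6 CPM in the tumor samples and 6.85 to 31.2 with a median of 14.04 CPM with chemotherapy, a log2 fold change of -0.20 ± 0.37 (edgeR adjusted p = 0.901). Mdm2 had a log2 fold change of -0.05 ± 0.14, and Sesn1, a stress-induced inhibitor of mTORC1, of 0.33 ± 0.15. Of 39 DNA repair genes 25 had a higher level with none at an unadjusted p below 0.05, and 14 a lower level with 2 at that threshold, a count that was 0 without chemotherapy sample 14.

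Lists of energy metabolism had medians near that of all genes. Respiratory complex I had 24 of 35 genes higher and a median log2 fold change of 0.07, and complexes II to V had 31 of 46 higher and a median of 0.09. Fatty acid genes had a median of -0.03, glycolysis and glycogen genes of -0.03 and the citric acid cycle of 0.08. Of 33 glycolysis and glycogen genes, 4 had a lower level at an unadjusted p below 0.05, which 3.81% of all genes met, and 0 a higher one. The count of 4 went to 1 without tumor sample 8 and to 5 without chemotherapy sample 11. Glycogen synthase (Gys1) had a log2 fold change of -0.41 ± 0.15, and the AMP deaminase gene Ampd3 of -0.78 ± 0.25, with chemotherapy sample 15 at 30.8 CPM against 13.9 to 16.9 in the 5 others. Interferon response genes had a median of -0.01, chaperones of 0.03 and sterol synthesis genes of -0.10. In the IL-6 and STAT3 list the median was 0.14, and Socs3, a feedback inhibitor of that pathway, had a log2 fold change of 0.46 ± 0.32 at means of 3.17 CPM in tumor and 4.10 in chemotherapy samples. Without chemotherapy sample 11 the list's median was -0.05 and Socs3 was at 0.07.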

How the data were processed

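Gastrocnemius RNA of 16 rat samples was compared, with 5 tumor and 6 chemotherapy samples in the contrast and 5 healthy samples in the model. The deposited table holds raw counts of reads per gene, made by the authors and not normalised. Tools named in the submitters' processing notes, without their order, are TopHat2 2.0.10, Bowtie2, Trim Galore 0.4.1, FastQC 0.11.4 and CASAVA 1.9. Which build, gene models and counter were used is not given in the sources used here. Of 32883 entries, 388 had no gene name and were left out, and 11856 of the 32495 named entries passed edgeR's filterByExpr (minimum count 10). Libraries 11 and 12 were summed.

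The gene test was edgeR 4.0.16 under R 4.3.3 (TMM scaling, robust quasi-likelihood F test, 3 group means, 13 residual degrees of freedom). The Benjamini-Hochberg adjustment ran over all genes tested, with a threshold of 0.05. Log2 fold changes are given with a standard error (SE), and levels are CPM scaled by TMM factors. The scripts were tested on simulated data. Shares of counts were compared by an exact permutation test (two-sided), whose smallest p for 6 against 5 samples is 0.00216.

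Groups, gene lists and the genes of the lists were chosen with earlier results of these data known. Named genes are the 15 with the smallest p in each direction and the 5 with the largest fold (mean of at least 5 CPM, assigned symbol), 3 per list, and a set fixed by name. Col4a1, Col4a2, Arntl, Per1, Per2, Per3, Bhlhe41, Actn2, Myl3, Thbs4, Fmod, Kera, Lyz2, F13a1, Ptprc, Tsc22d3, Ciart, Tef, Mnda and the genes called only in an alternative were named after their values were seen. The labels do not say that each library is a separate animal, so p-values measure the spread between these samples. Alternatives used DESeq2 1.42.0, limma 3.58.1, sva 3.50.0, other filters and scalings, a term for the alignment name's suffix, and each sample left out in turn.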

Additional observations from a re-analysis of the deposited data

Results flagged for a closer look

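Sets of 5 or 6 samples were checked for the genes named in the 3 groups, and for library totals and shares in the tumor and chemotherapy groups. Of 276 such sets, 22 (7.97%), all of them of genes, held a sample farther from its neighbours than Dixon's 95% limit. For independent, normally spread values the limit flags about 1 in 20 sets. These levels are of genes that move together, and some were named for large folds or after their values were seen. The 7.97% set beside that rate is thus not a test. Of the 22, 18 lay in the chemotherapy group, 9 in its sample 11 and 5 in its sample 17.

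Chemotherapy sample 11 was the highest of its group for Col1a1 (8156 CPM), Thbs4 (492.5), Fmod (408.5), Col12a1 (220.1), Kera (103.1) and Tnc (75.28), all of them matrix or tendon genes. It was also the highest for Cebpd (41.72), Cdkn1a (31.21) and Socs3 (8.158). Chemotherapy sample 17 was the highest for Lyz2 (164.3 CPM), Ptprc (63.7), Ighm (58.75) and Coro1a (54.38), and the lowest for Fras1 (23.77). Chemotherapy sample 15 was the highest for Actn2 (1696 CPM), Fbxo32 (453.9) and Ampd3 (30.84), and chemotherapy sample 14 for Mrpl27 (65.9).

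In the tumor group, sample 8 was the highest for Dsp (172.3 CPM) and sample 9 the lowest for Per2 (12.54). In the healthy group, sample 5 was the highest for Dbp (110.7 CPM) and sample 2 for Pknox2 (49.42).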

How the results depend on the processing

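The count of 0 called genes held in edgeR under DESeq2 size factors, total counts, a mean of at least 5 CPM, no filter, only the 2 groups compared, 17 libraries, library 12 dropped, the suffix term and without the 20 most abundant genes. DESeq2 called 2 higher and 7 lower, and 1 surrogate variable 4 higher and 3 lower. With 1 sample left out, 0 to 3 genes were called lower, the 3 (Fras1, Nr1d1 and AABR07015055.1) without tumor sample 9, and 0 higher. At an unadjusted p below 0.05, counts of 233 higher and 452 lower became 423 and 756 with no filter, and 376 and 781 with the suffix term. The higher count became 377 with only the 2 groups and 454 with 1 surrogate variable. With 1 sample left out, they ran from 140 to 366 higher and 210 to 806 lower. Genes without overlap numbered 13 higher with 17 libraries, and 27 to 105 higher and 45 to 149 lower with 1 sample left out, where fewer samples make overlap rarer. In 830 of 833 cases a list's median moved by less than the spread between samples, but 21 of 49 lists, with medians of at most 0.164 in size, changed sign with 1 sample left out. The 3 larger moves were DNA repair at 0.001 with 1 surrogate variable, clock genes at -0.34 in limma-voom, and creatine kinase genes, between -0.13 and -0.0239 with 1 sample left out.

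Of the 90 named genes followed through these fits, 6 changed sign in some fit. Per1, Ciart, Tef, Mnda and the genes called only in an alternative were not among the 90. With 1 surrogate variable, Trim63 was -0.0419, Mstn -0.14, Cdkn1a 0.17 and Col3a1 0.15. With 1 sample left out, Trim63 ran from -0.0335 to 0.0542, below 0 without tumor sample 8, chemotherapy sample 14 or 17. Cdkn1a ran from -0.59 to 0.19, above 0 without tumor sample 10. Coro1a ran from -0.0019 to 1.91 and Ighm from -0.32 to 3.28, both below 0 without chemotherapy sample 17. The cause was not tested. No paired analysis was possible because the labels do not pair samples between the groups. The replicate numbers are only the running library numbers of the titles. The lowest total, 3023899 counts, limits what can be seen in genes near the filter.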
